A study of Equus caballus with 26 samples.

Results

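The genes described here are 10 genes of CD1 antigen presentation and of dendritic cells, among 24415 gene names on an equine array: *CD1B2*, *CD1D*, *CD1E*, *ADAMDEC1*, *FLT3*, *CLEC9A*, *XCR1*, *IRF8*, *BATF3* and *CLEC10A*. They were found by the array's own gene names, or by the gene named in its description line, and each was read at its brightest probe. The list was drawn up with the changes in the experimental horses known, so its values in those horses are given as a description with no test. The 9 further CD1 names on the array are shown beside them.

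RNA of whole blood, collected from the jugular vein into tubes that fix RNA, was measured in 26 samples of 23 horses that took part in endurance competitions of 160 km. T0 was at rest before the ride and T1 immediately after its end. In the experimental set 3 geldings (horses 2, 32 and 41) were sampled at both times, whereas the validation set held 7 horses at T0 (3 females and 4 geldings) and 13 other horses at T1 (3 females and 10 geldings). The breed label reads Autre for every sample. According to the study's methods the horses were pure-bred or half-bred Arabians recruited at several competitions, and all horses of the validation set sampled at T1 had completed the ride. Of the 13 validation horses that the study sampled at T0, 10 were stopped at a veterinary check and 3 finished. The labels do not single these out among the 7 used here. Time, individual and finishing therefore cannot be told apart in the validation set.

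CD1 proteins are relatives of MHC class I molecules that hold lipids rather than peptides and show them to T cells. In people CD1a, CD1b and CD1c sit on the surface of dendritic cells, CD1c also on B cells, CD1e works inside the cell as a lipid transfer protein, and CD1d presents lipids to natural killer T cells. Dendritic cells of blood are rare; the cross-presenting type (cDC1) depends on the transcription factors IRF8 and BATF3 and carries CLEC9A and XCR1, whereas the other conventional type (cDC2) carries CD1c and CLEC10A. FLT3 is the receptor of the growth factor that makes both from bone marrow precursors, and ADAMDEC1 is a secreted metalloprotease relative made by mature dendritic cells and macrophages.

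The horse has many near copies of CD1 genes, so the probes that carry the results are shown first, to let a reader judge how far each one can tell its target from a copy. Each probe has 60 bases and is printed 5′ to 3′. Of the 12 CD1 names on the array 11 were found by accession in the RefSeq gene table, and all of those lie on chromosome 5 of the TB-T2T assembly, where RefSeq calls *CD1E2* plain *CD1E*, *CD1A1* plain *CD1A* and *CD1B* *CD1B1*. In the first pair capitals mark the 8 of 60 bases at which the *CD1E1* and *CD1E2* probes differ, and in the second pair the 4 of 58 overlapping bases at which the *CD1A1* and *CD1A5* probes differ, which start 2 bases apart. The probes of *CD1B2* and *ADAMDEC1*, the members that fell most, follow with no capitals.
CD1E1: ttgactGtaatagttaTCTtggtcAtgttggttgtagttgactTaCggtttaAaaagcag
CD1E2: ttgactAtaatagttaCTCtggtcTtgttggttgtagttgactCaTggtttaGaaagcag
CD1A1: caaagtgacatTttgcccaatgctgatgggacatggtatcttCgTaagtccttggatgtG
CD1A5: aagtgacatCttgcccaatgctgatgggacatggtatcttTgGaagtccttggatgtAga
CD1B2: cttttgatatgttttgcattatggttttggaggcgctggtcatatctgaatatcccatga
ADAMDEC1: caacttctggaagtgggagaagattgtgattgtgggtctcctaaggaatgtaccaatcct

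In the array files' own mapping, for which the header names EquCab1, the *CD1E1* probe lies at chrUn:170482008-170482067, the *CD1E2* probe at chrUn:170858540-170858599, the *CD1A1* probe at chrUn:170006277-170006336 and the *CD1A5* probe at chrUn:170288568-170288627, all on the plus strand of sequence not placed on a chromosome. The *ADAMDEC1* probe spans chrUn:46418881-46422356 on the plus strand, and the *CD1B2* probe has no position. The accessions listed for the *CD1A1* probe include that of *CD1A6* as well. In ungapped alignments of 40 or more bases no other pair of CD1 probes matched at more than 72.5% of bases.

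Levels are log2 of the scanner's background-subtracted and processed signal minus the 75th percentile of that array, so a level of 0 is a signal as bright as that percentile and each step of 1 is a doubling. A signal was called well above background by the scanner software, which was so for 60.2% to 75.3% of probes per array. Where it was not, the level is a bound, and such levels have no order among themselves. The array of horse 34, sampled at T1, differs from the others in its single scan and in holding the only saturated spots. T1 against T0 changes of the validation set were tested with limma, and p-values were adjusted over all 17401 gene names tested. Of these, 24% were lower and 20.2% higher at T1, and 7 of the 10 genes passed the filter on dim signals.

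*CD1B2*, *CD1E* and *ADAMDEC1* fell after the ride in the validation horses, 3 of the 7 genes tested. *FLT3*, *CLEC9A*, *IRF8* and *BATF3* did not pass the test, and none of the 7 rose. *CD1D*, *XCR1* and *CLEC10A* were at background on most arrays at both times. The 3 genes that fell are also the ones with the widest falls in the experimental horses, the contrast the list was drawn up on, so their fall here is not independent evidence of a common direction. The median log2 change of the 7 genes was -0.43 beside -0.07 over all gene names tested.

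**Figure D1:**
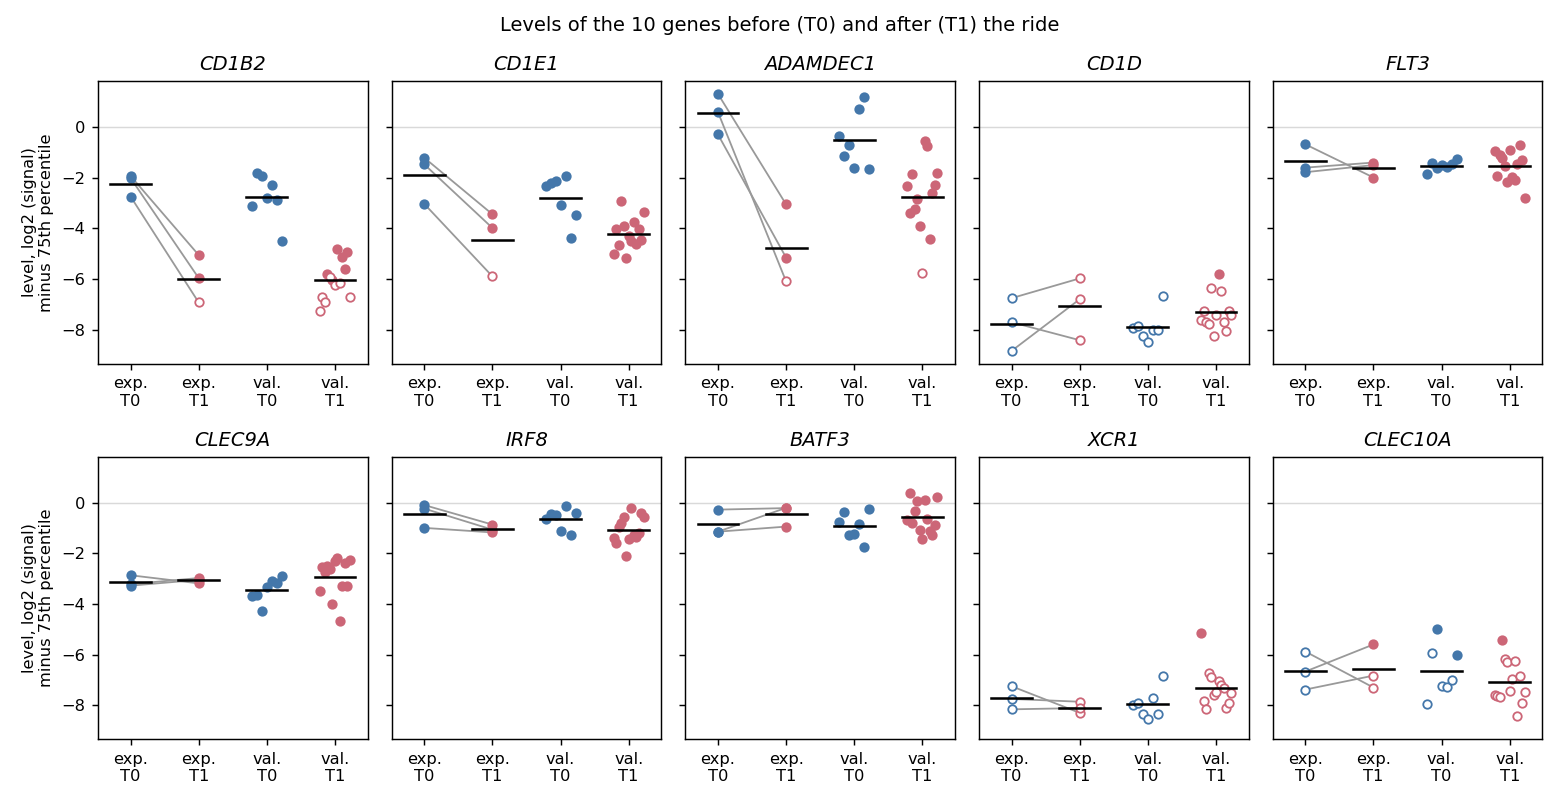
Level of each of the 10 genes (log2 signal minus the 75th percentile of the array) in the experimental set (exp., 3 horses, lines join the samples of a horse) and the validation set (val., 7 horses at T0 and 13 other horses at T1). Filled points are well above background, open points are not, and black bars are group means; *CD1B2* at T1 lies wholly below T0, whereas *CD1D*, *XCR1* and *CLEC10A* are mostly open.

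*CD1B2*, a CD1b molecule, showed the clearest difference. In the experimental horses its level was -2.02, -1.94 and -2.75 at T0 in horses 2, 32 and 41, and -5.97, -5.06 and -6.93 at T1, the last of these not well above background. It was thus lower at T1 in each horse, with differences of -3.96, -3.12 and -4.18 and a mean of -3.75 ± 0.56 (SD, n = 3). Of all gene names tested in that set 25.6% were lower in all 3 horses, and 2.66% were lower by more than 1 in all 3. The validation horses ranged from -4.49 to -1.82 at T0 with a median of -2.82, and from -7.26 to -4.84 at T1 with a median of -6.06. Every T1 horse lay below every T0 horse, which held for 0.764% of the gene names tested. All 7 horses at T0 but only 6 of 13 at T1 were well above background, so most T1 levels are bounds. The log2 change was -3.26 (SE 0.36, limma adjusted p = 2.46e-06), 9.56-fold. Within each of the 5 scan days that held both times it was negative, from -4.16 to -2.66. These days held only 1 or 2 horses at T0 and 1 to 4 at T1. With dim signals raised to the lowest level well above background on their array the change was -2.91, and with normexp background correction, whose offset shrinks dim signals towards each other, it was -0.98 (limma adjusted p = 2.38e-06).

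*CD1E* is represented by *CD1E1* and *CD1E2*, of which *CD1E1* was the brighter probe by its mean over all 26 arrays (-3.6 and -4.58). At T0 the mean levels of *CD1E1* and *CD1E2* were near equal, -2.8 and -2.77 in the validation set and -1.91 and -2.04 in the experimental set. The choice of *CD1E1* therefore rests mainly on the T1 levels. The *CD1E1* level was -1.48, -1.22 and -3.04 at T0 and -3.99, -3.45 and -5.90 at T1 in horses 2, 32 and 41, with only the last value not well above background. Each of the 3 horses was lower at T1, as for 25.6% of gene names tested in that set, by -2.53 ± 0.32 on average (SD, n = 3). In the validation set *CD1E1* ranged from -4.39 to -1.94 at T0 (median -2.35) and from -5.19 to -2.94 at T1 (median -4.30), and all arrays were well above background. These ranges overlapped, with 6 of the 13 T1 horses below every T0 horse. *CD1E1* fell by a log2 change of -1.42 (SE 0.32, limma adjusted p = 0.00133), and by -0.57 with normexp (limma adjusted p = 0.00171). Within scan days the difference was negative on 4 of 5 days and 0.09 on the other.

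*CD1E2* fell further than *CD1E1*. Its validation levels ran from -4.43 to -1.91 at T0 (median -2.51) and from -7.55 to -4.63 at T1 (median -5.46). Every T1 horse lay below every T0 horse, as for 0.764% of the gene names tested. Only 6 of 13 T1 arrays were well above background, so most T1 levels are bounds. *CD1E2* changed by -3.16 (SE 0.43, limma adjusted p = 1.28e-05) in the validation set, or -0.96 with normexp, and by -3.42 ± 0.08 (SD, n = 3) in the experimental horses. There horse 41 at T1 (-6.46) was not well above background, so this mean and SD rest partly on a bound. The change of *CD1E2* was more negative than that of *CD1E1* by -1.75 (SE 0.44, exact permutation test over the 20 horses, two-sided, p = 0.00328, adjusted p = 0.00819 over 10 such comparisons). This comparison was chosen after the values were seen. With normexp that difference was -0.39 (adjusted p = 0.0545, exact permutation test). The probes share 52 of 60 bases, and how much of each signal comes from the other transcript was not tested.

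Of the remaining CD1 names the CD1A copies and *CD1B* fell, and *CD1C* did not pass. CD1a is the family's surface form of Langerhans cells and skin dendritic cells in people, and the horse has several copies of it. In the validation set *CD1A1* fell by a log2 change of -1.96 (SE 0.39, limma adjusted p = 0.000416) and *CD1A2* by -1.47 (SE 0.27, limma adjusted p = 0.000216). *CD1A5* changed by -1.83 (limma adjusted p = 0.000558) and *CD1A7* by -1.93 (limma adjusted p = 0.00519). For all 4 of these names every array was well above background, and the level was lower at T1 in 3 of 3 experimental horses, by -1.53 to -2.14 on average. Being lower in all 3 horses held for 25.6% of gene names tested in that set. *CD1B* fell by -0.89 (SE 0.33, limma adjusted p = 0.0332), and in the experimental set it was lower in horses 2 and 32 (-2.33 and -1.03) and higher in horse 41 (0.54). *CD1A3* was not well above background on any array and *CD1A6* on 3 of 26. Of the 12 CD1 names 9 were tested, and 8 of these fell and none rose, with a median log2 change of -1.83. Over all gene names tested 24% fell and 20.2% rose, with a median of -0.07. The CD1 names are not all separate readings, since the *CD1A1* and *CD1A5* probes match at 54 of 58 bases and those of *CD1E1* and *CD1E2* at 52 of 60.

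*CD1C*, which is carried by cDC2 and B cells in people, was the one tested CD1 name that did not pass. Its level in the validation set ran from -0.03 to 2.87 at T0 (median 1.26) and from -0.37 to 2.29 at T1 (median 1.38), and these ranges overlap over most of their width. The log2 change was -0.31 (95% interval -1.16 to 0.55, limma adjusted p = 0.578). In the experimental horses *CD1C* changed by -1.52, -0.52 and 0.98 in horses 2, 32 and 41.

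**Figure D2:**
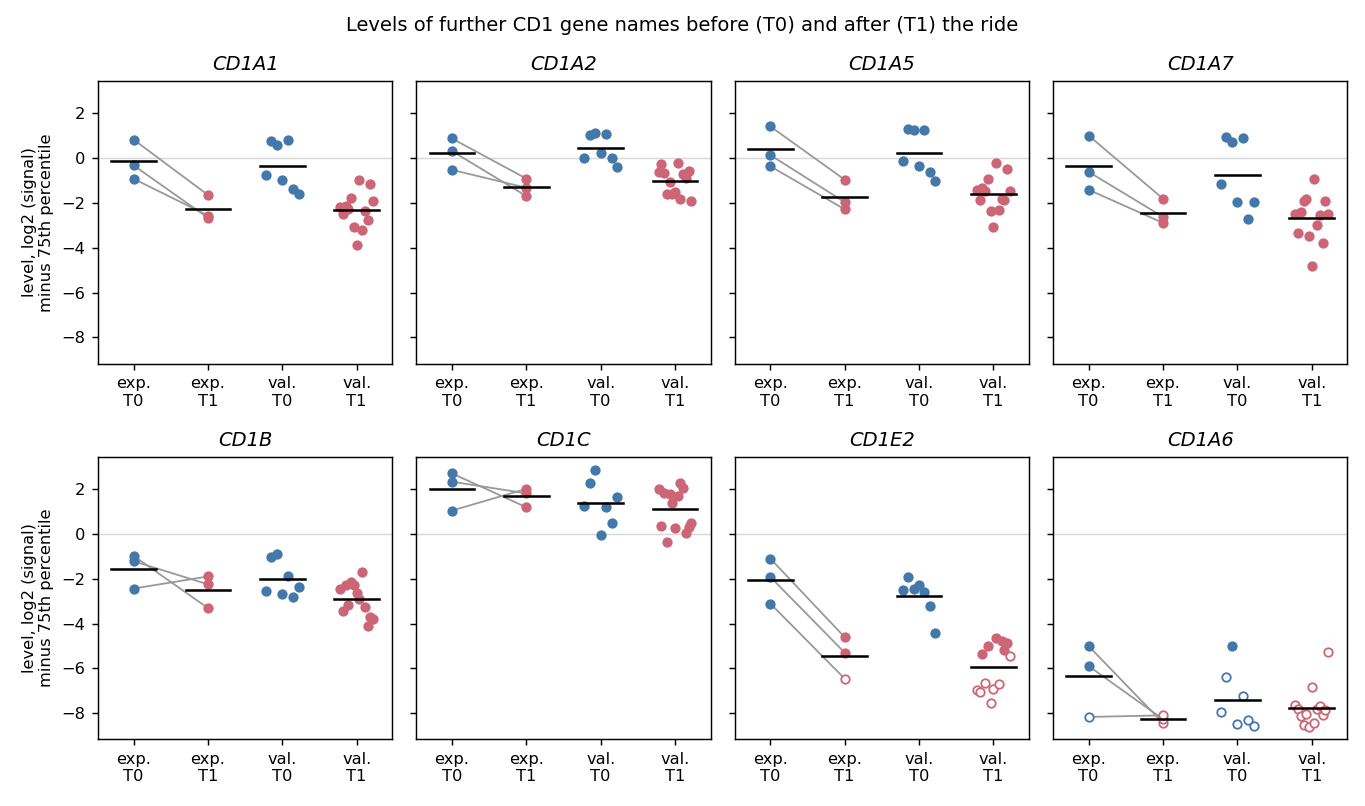
Level of 8 further CD1 names (log2 signal minus the 75th percentile of the array) by set and time, drawn as for the 10 genes. The 4 CD1A names with filled points are lower at T1 in all 3 experimental horses, as were 25.6% of gene names tested in that set. *CD1C* overlaps over most of its range, and *CD1A6* is mostly at background.

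Whether CD1 names changed unequally was tested by the difference of their changes within the same arrays, in 10 comparisons chosen after the values were seen. The reference *CD1C* was the one tested CD1 name that did not pass. A difference from it was thus partly set in advance, and the p-values are no independent support. The size of a difference is given by its log2 value and not by its p-value. *CD1B2* and *CD1E2* were each well above background on 6 of 13 T1 arrays, so their differences rest partly on bounds. Relative to *CD1C*, the change was more negative by -2.95 for *CD1B2* (SE 0.54, adjusted p = 0.000709, exact permutation test over 20 horses) and by -2.86 for *CD1E2* (SE 0.59, adjusted p = 0.000709, exact permutation test). The CD1A names differed from *CD1C* by -1.17 to -1.66, with adjusted p from 0.0102 to 0.0236 in the same exact permutation test. *CD1B* (-0.59, SE 0.25, adjusted p = 0.0567) and *CD1E1* (-1.11, SE 0.51, adjusted p = 0.0691) did not pass against *CD1C* in the exact permutation test. *CD1B2* differed from its near relative *CD1B* by -2.36 (SE 0.43, adjusted p = 0.00112, exact permutation test). With normexp the direction was kept in all 10 comparisons and none passed, with differences of -0.12 to -1.10 and adjusted p from 0.0545 to 0.686 in the exact permutation test; without horse 47 the difference of *CD1B* and *CD1C* passed (-0.69, adjusted p = 0.0357, exact permutation test).

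**Figure D3:**
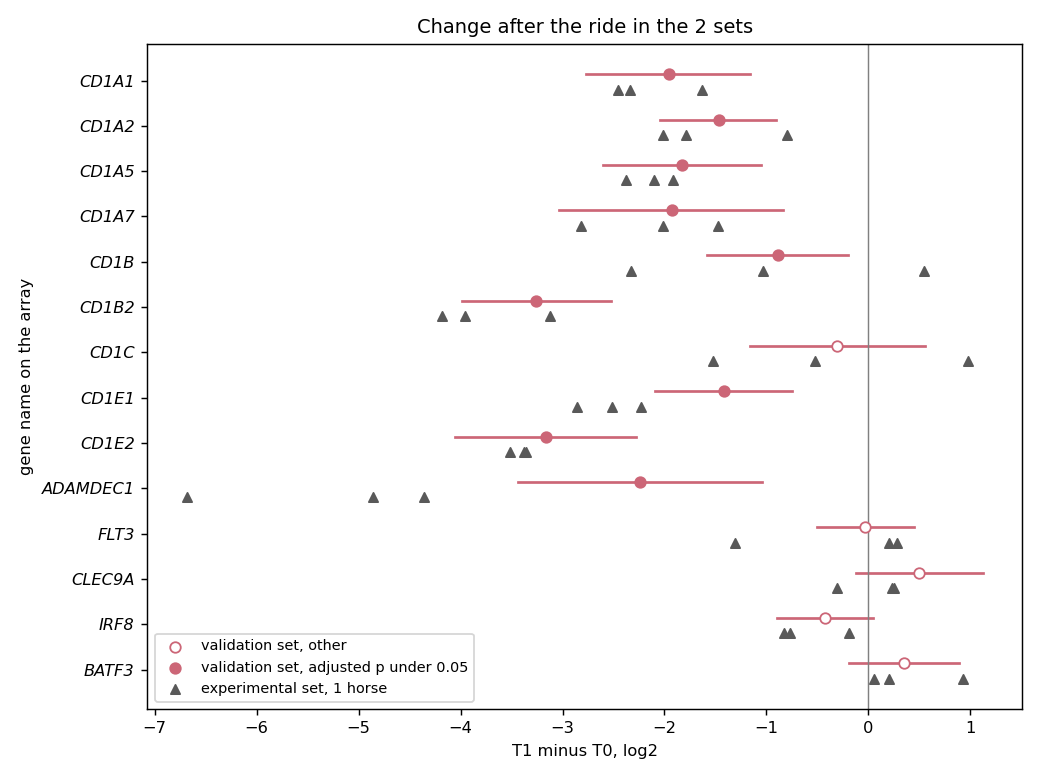
T1 minus T0 change (log2) of the 14 names tested. Circles are the validation set with 95% intervals of the mean change from limma, filled where the adjusted p was under 0.05. Triangles are the 3 single horses of the experimental set, whose spread these intervals do not measure. The *ADAMDEC1* triangles lie from -6.68 to -4.36, and its validation interval for the mean is -3.44 to -1.04.

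*ADAMDEC1* had the largest difference of the 10 genes in the experimental horses, the set it was chosen on. There its level was 0.58, 1.3 and -0.30 at T0 and -6.10, -3.06 and -5.16 at T1 in horses 2, 32 and 41, and only horse 2 at T1 was not well above background. The paired differences were -6.68, -4.36 and -4.86, a mean of -5.30 ± 1.22 (SD, n = 3). In the validation set the levels were -1.66 to 1.19 at T0 (median -0.71) and -5.78 to -0.57 at T1 (median -2.60). The groups overlapped: 11 of 13 T1 horses lay below every T0 horse, while horses 24 (-0.57) and 34 (-0.74) lay within the T0 range. The log2 change was -2.24 (SE 0.58, limma adjusted p = 0.00352), 4.72-fold, and -1.41 with normexp (limma adjusted p = 0.0022). The 2 *ADAMDEC1* probes gave similar changes, -2.24 and -2.44 in the validation set and -5.30 and -6.08 in the experimental set. The change was negative on 5 of 5 scan days, from -6.50 to -1.61, the former on a day with 1 horse at each time. The difference in size between the sets was not tested.

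*IRF8*, *BATF3* and *CLEC9A*, the members of the cDC1 line that could be measured, did not pass the test. *IRF8*, the transcription factor that sets the cDC1 and monocyte lines, was at -0.10, -0.24 and -1.0 at T0 and -0.87, -1.07 and -1.18 at T1 in horses 2, 32 and 41, lower in each by 0.19 to 0.83. A level lower in all 3 experimental horses was also found for 25.6% of gene names tested in that set. In the validation set *IRF8* ranged from -1.29 to -0.13 (median -0.48) at T0 and from -2.10 to -0.22 (median -1.22) at T1. The log2 change was -0.43 (95% interval -0.90 to 0.04, limma adjusted p = 0.134), and the 5 *IRF8* probes gave -0.40 to -0.46.

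*BATF3*, the partner of IRF8 in cDC1 cells, was at -0.28, -1.15 and -1.15 at T0 and at -0.22, -0.21 and -0.95 at T1 in horses 2, 32 and 41. It was higher at T1 in all 3, by 0.05, 0.93 and 0.20, a mean of 0.40 ± 0.47 (SD, n = 3). The share of all gene names that were higher in all 3 horses was not counted. The validation levels were -1.75 to -0.25 (median -0.85) at T0 and -1.43 to 0.36 (median -0.69) at T1, and these overlapped broadly. The log2 change was 0.35 (95% interval -0.19 to 0.89, limma adjusted p = 0.293).

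*CLEC9A*, the cDC1 receptor for the actin of dead cells, was at -2.87, -3.28 and -3.22 at T0 and -3.19, -3.05 and -2.98 at T1 in the experimental horses, a mean difference of 0.05 ± 0.32 (SD, n = 3). In the validation set it ran from -4.29 to -2.90 (median -3.32) at T0 and from -4.67 to -2.18 (median -2.61) at T1, with 8 of 13 T1 horses above every T0 horse. The log2 change was 0.50 (95% interval -0.12 to 1.12, limma adjusted p = 0.184). The lowest T1 value, -4.67, came from horse 34; without that horse the change was 0.65 (limma adjusted p = 0.041), a rise past the threshold, and in the other 11 alternatives the adjusted p stayed above it.

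*FLT3* was at -0.69, -1.79 and -1.61 at T0 and -2.0, -1.51 and -1.41 at T1 in horses 2, 32 and 41, so only horse 2 was lower at T1. Its validation levels were -1.85 to -1.28 (median -1.51) at T0, a spread of 0.18 (SD, n = 7), and -2.82 to -0.72 (median -1.48) at T1, a spread of 0.61 (SD, n = 13). The log2 change of the mean was -0.03 (95% interval -0.50 to 0.45, limma adjusted p = 0.938). Of the 13 T1 horses 5 lay below and 5 above the whole range of the 7 T0 horses. In the experimental horses the spread went the other way, 0.59 at T0 and 0.31 at T1 (SD, n = 3). Whether the spread of *FLT3* differed between T0 and T1 was not tested.

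The remaining 3 members could not be followed. *CD1D* was well above background on 1 of 26 arrays (horse 24 at T1) and *XCR1*, the receptor by which cDC1 cells follow the chemokine XCL1, on 1 (horse 1 at T1). *CLEC10A*, a lectin of cDC2 cells and macrophages for which the array has a sequence described as similar to it, was well above background on 4 arrays: horse 41 of the experimental set at T1, horses 15 and 47 of the validation set at T0, and horse 8 at T1. Both groups were at background for these 3 genes, so no fold is given. The labelled sample is whole blood, and the T cell, B cell, monocyte and neutrophil genes measured here were well above background in each group. Among genes of dendritic cells *CLEC9A*, *CD1C* and *FCER1A* were well above background on all 26 arrays, whereas *XCR1* and *CLEC10A* mostly were not.

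Other genes of dendritic cells, from lists drawn up with earlier results of these data known, went both ways in the validation set. Of the cDC1 list, other than the members, 9 genes were on the array and 6 were tested: 1 rose, 2 fell and 3 did not pass, with a median log2 change of -0.06. *IDO1*, an enzyme that breaks down tryptophan, fell by -2.22 (SE 0.29, limma adjusted p = 8.78e-06) and *DNASE1L3*, a secreted DNase, by -0.77 (limma adjusted p = 0.0044), whereas *NFIL3*, a transcription factor upstream of cDC1 cells that many leukocytes express, rose by 1.69 (limma adjusted p = 6.39e-05). Of the cDC2 list 8 of 10 were tested, of which 2 rose and 4 fell (median -0.14). *FCER1A*, the IgE receptor chain shared with basophils, changed by -3.75 and *CD2*, shared with T cells, by -1.67, and *KLF4* rose by 2.84 and *SIRPA* by 1.22; the latter are abundant in monocytes.

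Plasmacytoid dendritic cells, the main makers of type I interferon, had 7 genes tested, with 1 rise and 3 falls (median -0.30). *IRF7*, the regulator of that interferon, changed by -2.24 (SE 0.33, limma adjusted p = 2.83e-05), and *SPIB*, which B cells also use, by -1.83 (SE 0.34, limma adjusted p = 0.00024), while *SLC15A4*, an endosomal transporter, rose by 1.23. Of the mature dendritic cell list 10 genes were tested, with no rise, 4 falls and 6 that did not pass (median -0.44). *LAMP3*, the lysosomal protein of mature dendritic cells, changed by -2.32 (SE 0.30, limma adjusted p = 8.41e-06) and *CCR7*, the lymph node homing receptor that naive T cells also carry, by -1.05 (limma adjusted p = 0.0209).

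Among growth factor and chemokine genes of dendritic cells 7 were tested and 2 rose (median 0.07). The shared receptor chain *CSF2RB* rose by 1.38 and *CSF2RA* by 0.95. The ligand of FLT3, *FLT3LG*, named here after its value was seen, had a log2 change of -0.44 that did not pass (limma adjusted p = 0.0555). Of the genes that load CD1 molecules with lipid and move them through the cell 12 were tested, *CD1C* included, of which 1 rose, none fell and 11 did not pass (median -0.03). The riser was *AP3B1*, a subunit of the adaptor that takes CD1b to lysosomes (0.89, SE 0.16, limma adjusted p = 0.000181). *B2M*, the light chain that every CD1 heavy chain needs, was at 8.34 ± 0.29 (SD, n = 7) and 8.18 ± 0.56 (SD, n = 13) and had a log2 change of -0.15 (limma adjusted p = 0.605); it too was named after its value was seen.

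Markers of other blood cells also differed between T0 and T1. Most B cell and T cell genes and 2 of 3 basophil and mast cell genes were lower, and most neutrophil genes and 4 of 8 monocyte genes were higher. Of the B cell list 6 of 7 genes fell (median -1.41), and the log2 of their summed level went from a range of 3.63 to 4.87 at T0 to 2.01 to 3.93 at T1 in the validation set. T cell genes fell in 7 of 8 cases (median -1.20), with summed levels of 4.72 to 5.96 and 4.09 to 4.95. In the neutrophil list 5 of 6 rose (median 1.87), from 6.41 to 9.16 at T0 to 8.62 to 10.42 at T1, and in the monocyte list 4 of 8 rose and 1 fell (median 0.84), from 6.57 to 7.98 to 7.53 to 8.87. All genes of these 4 lists were well above background on at least 1 array of each group. Basophil and mast cell genes fell in 2 of 3 cases, and their summed level went from 2.00 to 3.73 at T0 to -1.42 to 0.50 at T1. The blood progenitor list had 1 fall among 3 genes tested, with *CD34* well above background on 1 of 26 arrays, and none of 3 platelet genes passed. The part of these cell types in the changes of *CD1B2*, *CD1E* and *ADAMDEC1* was not tested, and in whole blood fewer cells of a type and less RNA per cell cannot be told apart.

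**Figure D4:**
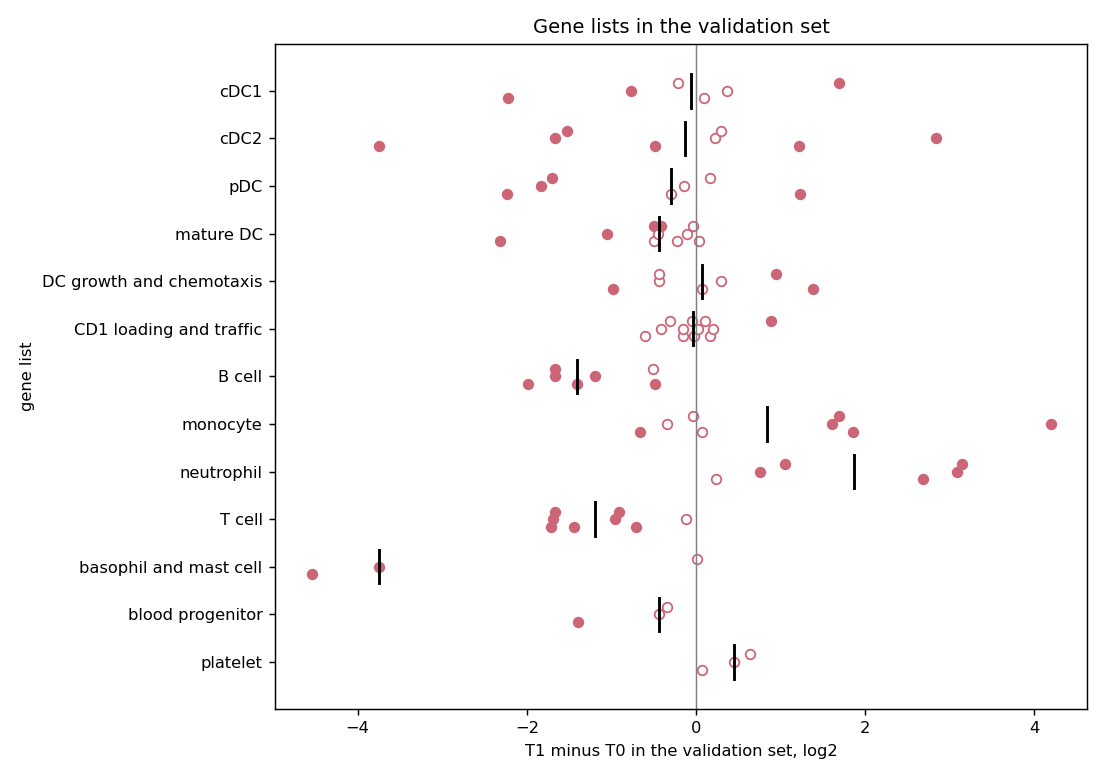
T1 minus T0 change (log2) in the validation set of each gene tested in the dendritic cell and CD1 lists and in the marker lists of other blood cells. Each point is a gene, filled where the limma adjusted p was under 0.05, and black bars are list medians; the cDC1, cDC2 and pDC lists straddle 0, the mature dendritic cell, B cell and T cell genes lie mostly to the left, and neutrophil genes lie to the right.

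Across the 13 validation horses at T1, 5 members were well above background on every array (*CD1E1*, *FLT3*, *CLEC9A*, *IRF8* and *BATF3*), and none of their 10 pairs passed after adjustment. The strongest was between *FLT3* and *BATF3*, with Pearson's r = -0.601 (permutation p = 0.0319, adjusted p = 0.309) and Spearman's rho = -0.588 (permutation p = 0.039, adjusted p = 0.385). Without the 2 horses farthest from the median of *FLT3* its r was -0.401, and after removal of the sex means -0.591. Without horse 34 the strongest pair was *CD1E1* and *CLEC9A* (r = 0.676, permutation p = 0.0157, adjusted p = 0.128), whose r was 0.338 with that horse, and again no pair passed. Scan days held too few of these horses for a value within days.

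Among CD1 names *CD1A1*, *CD1A5* and *CD1A7* were correlated from horse to horse, and *CD1A2* with none of them after adjustment. This family of 21 pairs was chosen after the values were seen, and 4 pairs passed by Pearson's r. *CD1A1* and *CD1A5*, whose probes match at 54 of 58 bases, had r = 0.985 and rho = 0.956 (permutation p = 1e-05 for both, the smallest that 100000 resamples can give; adjusted p = 0.00021). *CD1A1* and *CD1A7* had r = 0.899 and rho = 0.907 (permutation p = 5.00e-05 and 6.00e-05; adjusted p = 0.00035 and 0.00042), and r = 0.763 without the 2 farthest horses. *CD1A5* and *CD1A7* had r = 0.912 and rho = 0.940 (permutation p = 4.00e-05 and 2.00e-05; adjusted p = 0.00035 and 0.00021), and 0.784 without the 2 farthest horses. *CD1A1* and *CD1E1*, in contrast, had r = 0.008 and rho = -0.022 (permutation p = 0.979 and 0.948; adjusted p = 0.982 and 0.948). The pairs of *CD1A2* did not pass, with r = 0.543 and rho = 0.434 for *CD1A1* (permutation p = 0.0563 and 0.14, adjusted p = 0.197 and 0.42), r = 0.555 and rho = 0.50 for *CD1A5* (permutation p = 0.0488 and 0.0845, adjusted p = 0.197 and 0.296) and r = 0.35 and rho = 0.33 for *CD1A7* (permutation p = 0.241 and 0.271, adjusted p = 0.563 and 0.632). *CD1B* and *CD1C* had r = 0.708 (permutation p = 0.00948, adjusted p = 0.0498) and rho = 0.61 (permutation p = 0.0308, adjusted p = 0.162), and r = 0.579 without the 2 farthest horses. That pair no longer passed without horse 34 (r = 0.643, permutation p = 0.028, adjusted p = 0.118) or with quantile normalization (r = 0.618, permutation p = 0.0286, adjusted p = 0.12).

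**Figure D5:**
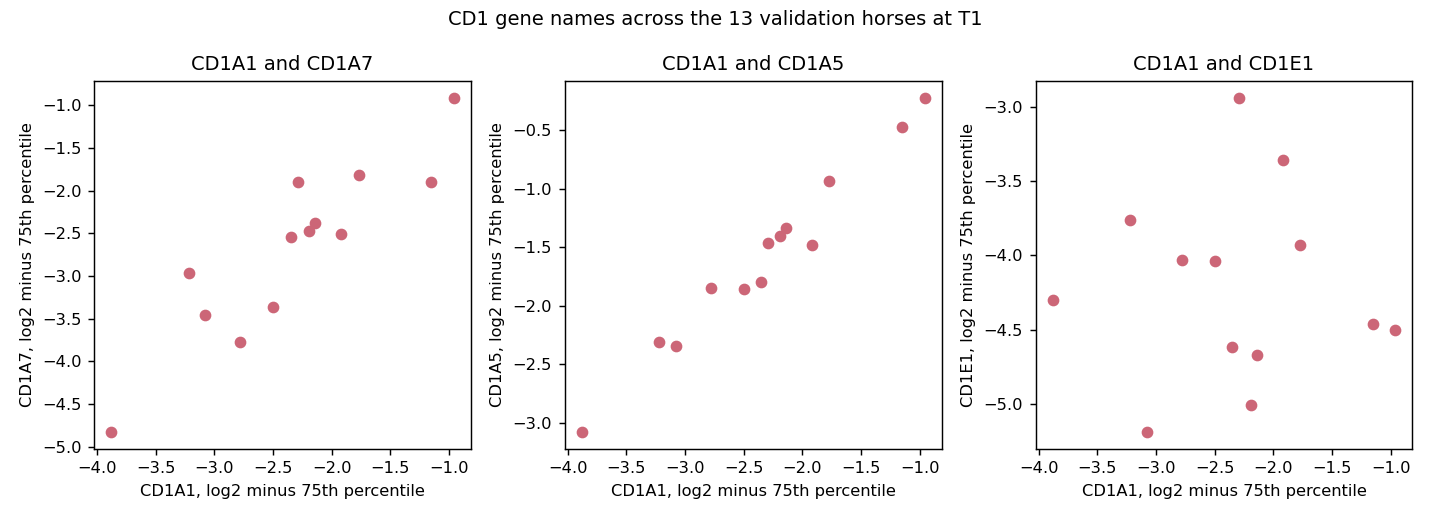
Levels of pairs of CD1 names (log2 signal minus the 75th percentile of the array) in the 13 validation horses at T1, 1 point per horse. *CD1A1* rises with *CD1A7* and *CD1A5*, whereas *CD1A1* and *CD1E1* show no trend.

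Sex was compared within the 13 validation horses at T1, 3 females against 10 geldings. None of the 7 members tested passed (gelding minus female -0.19 to 0.96 on the log2 scale, limma adjusted p from 0.62 to 0.986), in a comparison that called 0.0409% of gene names. The widest difference was that of *CD1E1*, at -4.96 ± 0.27 (SD, n = 3) in females and -3.99 ± 0.53 (SD, n = 10) in geldings (limma adjusted p = 0.62).

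As a description, the deviations of each member from its group mean were compared with those of 13224 gene names well above background on all 26 arrays, which share the array's scaling and RNA quality. The gene names most like *IRF8* were *BCKDK* (r = 0.871), *RRAS* (0.867) and *IFFO1* (0.857), and those most like *BATF3* were *MARCHF2* (0.826), *SNF8* (0.803) and *GPIHBP1* (0.80). For *FLT3* these were *ALDH7A1* (0.796), *ADAMTS2* (0.781) and *NDNF* (0.772). The *CLEC9A* level had the weakest companions, *CPVL* (0.659), *ZNF518B* (0.63) and *FTH1* (0.579).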

How the data were processed

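Whole-blood RNA of 26 samples was hybridised by the authors to 1-colour equine arrays and scanned with Agilent Feature Extraction 10.7.3.1. The deposited scanner files hold a background-subtracted intensity per spot with its flags, and the authors' series table holds log2 values whose order follows mean minus local background signal, with medians near equal between arrays; its normalization is not given in the sources used here. Intensities were put on a log2 scale minus each array's 75th percentile, without outlier spots; spots of a probe were averaged and each gene name was read at its brightest probe. Changes were fitted with limma 3.58.1 (R 4.3.3) and Benjamini-Hochberg adjustment at 0.05, over gene names whose probe passed the well-above-background flag on a minimum of 7 of 20 validation arrays, 3 of 6 experimental arrays or 5 of 13 in the sex comparison. The experimental fit held horse as a block: the labels give the same animal at both times, and the correlation of its deviations was -0.00817, 0.212 and 0.192 in horses 2, 32 and 41. Exact permutation tests and those with 100000 resamples were two-sided and were coded with NumPy 2.4.6. Ranks, Spearman's rho and the Benjamini-Hochberg adjustment of these tests came from SciPy 1.17.1. The fit was tested on simulated data.

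The members and lists were chosen with earlier results of these data known. Named genes are all members and CD1 names and, from each pathway list, up to 2 risers and 2 fallers of those past the threshold; marker lists are given as counts and summed levels. Of the list genes, those with no matched probe name were left out. The result of 1 further list gene is not reported here. Array precision is limited by the number of arrays. Alternatives were normexp with quantile normalization, quantile normalization, the deposited values, other filters on dim probes, the mean of a gene's probes, horses left out, sex, scan day and slide as terms, and no block; after the data were seen, dim signals raised to their array's floor, the comparisons within scan days and the tests between CD1 names were added.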

Additional observations from a re-analysis of the deposited data

Results flagged for a closer look

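At T0 in the validation set, 1 of 19 names looked at had a horse far from the other 6: *CD1D* in horse 47, at -6.68, beyond Dixon's 95% critical value of 0.568 for 7 samples. *CD1D* was not well above background on any of these 7 arrays, and chance flags about 1 in 20 groups.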

How the results depend on the processing

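In the validation set *CD1B2*, *CD1E1*, *CD1E2* and *ADAMDEC1* and the CD1A names and *CD1B* stayed lower and past the threshold in every alternative that tested them; *CD1B2* ranged from -3.54 to -0.98, *CD1E1* from -1.55 to -0.57 and *ADAMDEC1* from -3.01 to -1.41, and the smallest values came from normexp and the deposited values. Where every array had to be well above background, *CD1B2* and *ADAMDEC1* were not tested, and the count of members past the threshold was 1 in place of 3. *FLT3* changed sign, to 0.06 with normexp, 0.04 with quantile normalization, 0.06 with the deposited values, 0.03 as the mean of its probes, 0.02 without horse 34, 0.02 without horse 47 and 0.20 with scan day as a block, and passed in none; *CLEC9A* passed without horse 34, as given above, and *IRF8*, *BATF3* and *CD1C* kept their direction and did not pass in any. In the experimental set 1794 gene names passed, 46 with no filter on dim probes, 2838 with every array well above background, and between 180 (without horse 2) and 3219 (without horse 41) with a horse left out, 832 without horse 32. Without the replicate block, which drops the pairing of the horses, 1793 passed. Of the 1794, 60.6% were higher at T1, beside 49.5% with quantile normalization, 48.2% with normexp and 47.7% with the deposited values. The means of the experimental set kept their sign for *CD1B2* (-4.07 to -1.21), *CD1E1* (-2.86 to -1.18) and *ADAMDEC1* (-5.77 to -3.18). Dim signals limit *CD1B2* and *CD1E2* at T1, where their folds rest on levels near background. The causes of these shifts were not tested.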

Other observations

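The *CD1C* levels of the 13 validation horses at T1 left a gap of 0.89 on the log2 scale, with 6 horses from -0.37 to 0.50 and 7 horses from 1.38 to 2.29; all 3 females were among the 7. The *CD1C* gap was noticed after the values were seen and was not tested.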
